A study of Mus musculus with 2 samples.

Results

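The genes described here encode the machinery of synaptic vesicles and of regulated exocytosis. They were taken by symbol alone, without use of any measured value, as the synaptotagmin, syntaxin, syntaxin-binding, VAMP, SNAP, complexin, synapsin, synaptogyrin, SV2, Rab3, Munc13 (Unc13), RIM and synaptojanin families together with synaptophysin (Syp), synaptoporin (Synpr), Nsf, Cadps, Cadps2, Doc2a, Doc2b, Bsn and Pclo. The platform annotation gave 83 such genes on 1641 probe sets, out of 22296 symbols on 318760 probe sets that carry a single symbol.

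The study compared neurons that express agouti-related peptide (AgRP), sorted by fluorescence (FACS) from the hypothalamus of FoxO1 knockout (KO) mice and of mice with a heterozygous FoxO1 knockout, which serve as the control group. FoxO1 is a transcription factor held out of the nucleus by insulin signalling, and the control cells also carry 1 altered FoxO1 allele. Each genotype had 1 exon-level array, of littermates matched for age and sex on a mixed genetic background. The labels read here state neither mouse age, nor the driver used for deletion and labelling, nor how many animals an array holds. A single array per genotype allows no test, so every difference below is a difference between these arrays and carries no p-value. In such sorted pools, fewer cells of a type and less RNA per cell cannot be told apart.

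Vesicle release rests on SNARE proteins: a VAMP on the vesicle zippers with a syntaxin and a SNAP on the plasma membrane, and this pulls the membranes together. Munc13, RIM and CAPS proteins prepare vesicles for fusion at the active zone, complexins hold and then assist the SNARE bundle, synaptotagmins sense calcium, and Nsf takes the used SNAREs apart. AgRP neurons release GABA from small synaptic vesicles, and neuropeptide Y and AgRP from dense-core vesicles, so both pathways operate in the sorted cells. The transcripts that define the sorted cells were bright on both arrays, with Agrp at 12.4 (KO) and 11.97 (heterozygous) and Npy at 12.2 and 12.3.

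All values are log2 signals and all differences are KO minus heterozygous KO. A probe set was used when its mean over the arrays reached 5.86, the median over all probe sets, and a gene was evaluated when at least 3 probe sets were used. Its level and its difference are medians over those probe sets, taken separately, and so the gap of a gene's levels can be larger or smaller than its difference. The 2-fold rule used for calls asked for a difference of 1 or more in size together with the same sign in 75% or more of the probe sets. SDs are over the probe sets of 1 gene; they measure how far probe sets disagree and hold no variation between mice. Of the 83 genes 82 were evaluated, and the exception was the complexin Cplx4, for which 2 of 6 probe sets reached the floor. This filter can be passed through a single bright array.

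As a whole, the vesicle genes lay where the rest of the transcriptome lay. Their median difference was -0.12, beside -0.11 over all 16639 evaluated genes, and 52 of 82 were below 0, or 63.4% beside 65.2% of all genes. Only 2 of the 82 were called lower (2.44%, beside 1.12% of all genes), and they were the complexin Cplx2 and the VAMP Vamp8. Only 1 was called higher (1.22%, beside 1.13%), the syntaxin Stx19. At a 1.5-fold limit 7 were lower (8.54%, beside 4.9% of all genes), adding Syt1, Syt13, Syn1, Sv2b and Syngr3 to the first pair, while 3 were higher (3.66%, beside 3.28%), adding Stx5a and Vamp4. When only the agreement of probe sets was asked for, whatever the size, 24 members were lower in at least 75% of their probe sets (29.3%, beside 23.3% of all genes) and 7 were higher (8.54%, beside 9.56%).

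**Figure D1:**
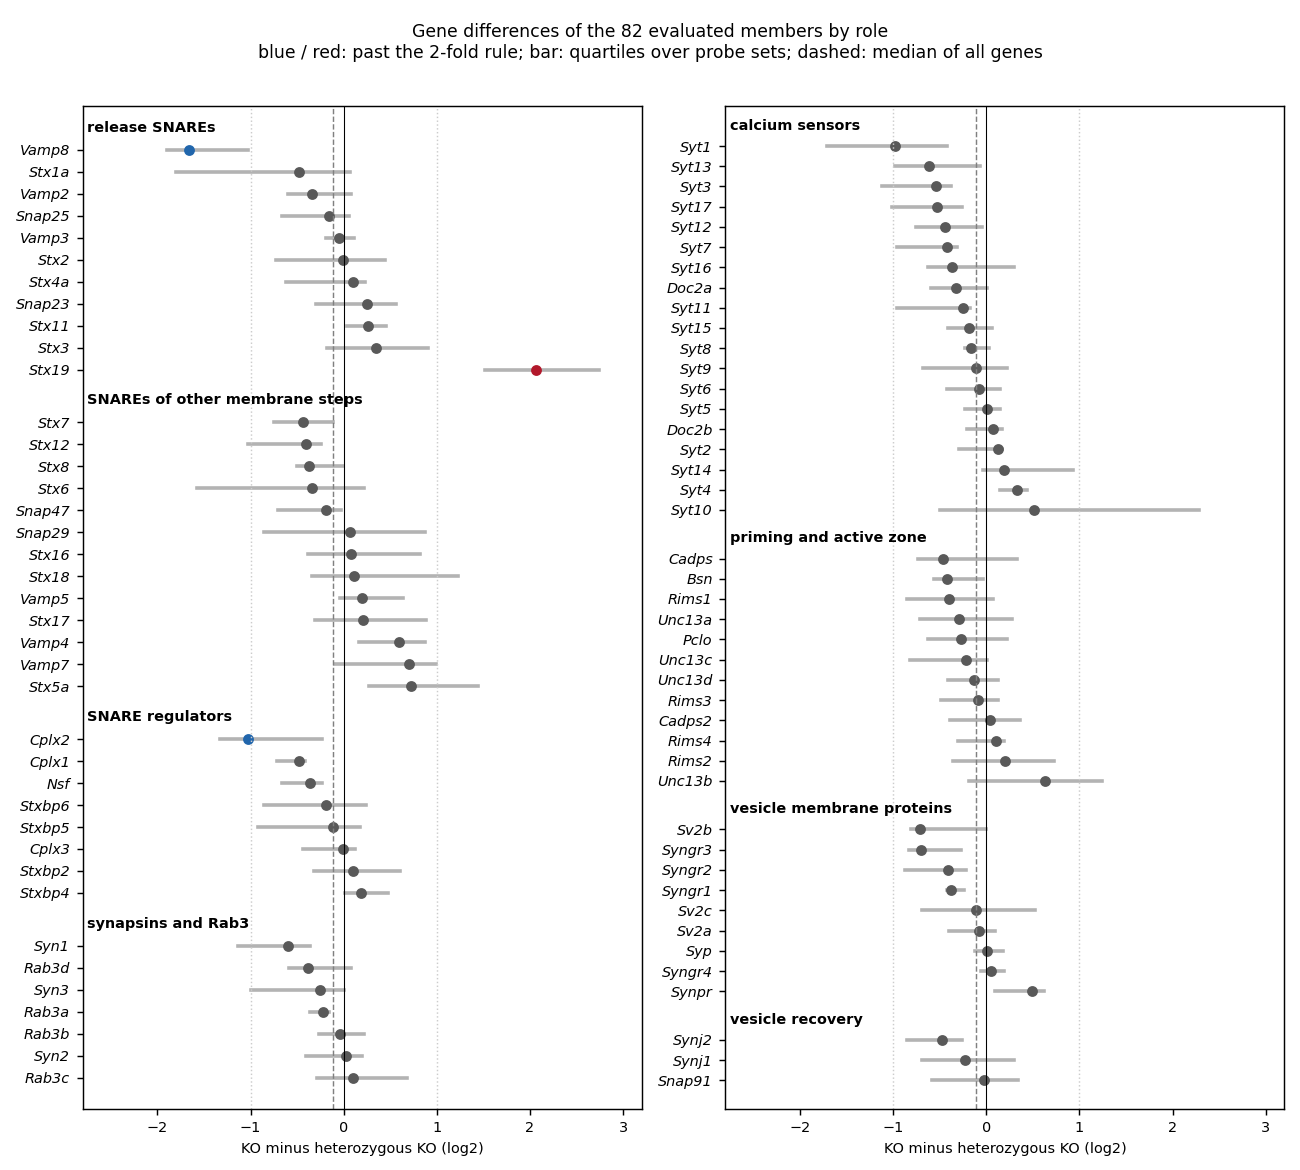
Gene differences (KO minus heterozygous KO, log2, horizontal axis) of the 82 evaluated members, grouped by role. Points are medians over a gene's probe sets, bars span the quartiles of those probe sets, the dashed line marks the median of all genes (-0.11), and colour marks the 3 genes past the 2-fold rule. Most bars cross 0, and Vamp8, Cplx2 and Stx19 stand at the ends.

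A list of core genes of neuronal release holds 19 of the members. It was drawn up when a lower median of a shorter synaptic vesicle list on these arrays was already known, so its values are a description and not separate evidence, and its difference from the other members was not tested. Of the 19 genes 17 were below 0 (89.5%, beside 65.2% of all genes), with a median of -0.36 beside -0.11. The other 63 evaluated members had a median of -0.03, with 35 below 0 (55.6%). At least 75% of probe sets were lower in 9 core genes (47.4%) and in 15 of the others (23.8%), beside 23.3% of all genes. As many were higher in 0 core genes and in 7 of the others (11.1%), beside 9.56%. The 2 core genes not below 0 were Syp at 0.01 and Syn2 at 0.02. Under other settings Syn2 fell as low as -0.01, and Sv2a, counted below 0 here, rose as high as 0.03.

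**Figure D2:**
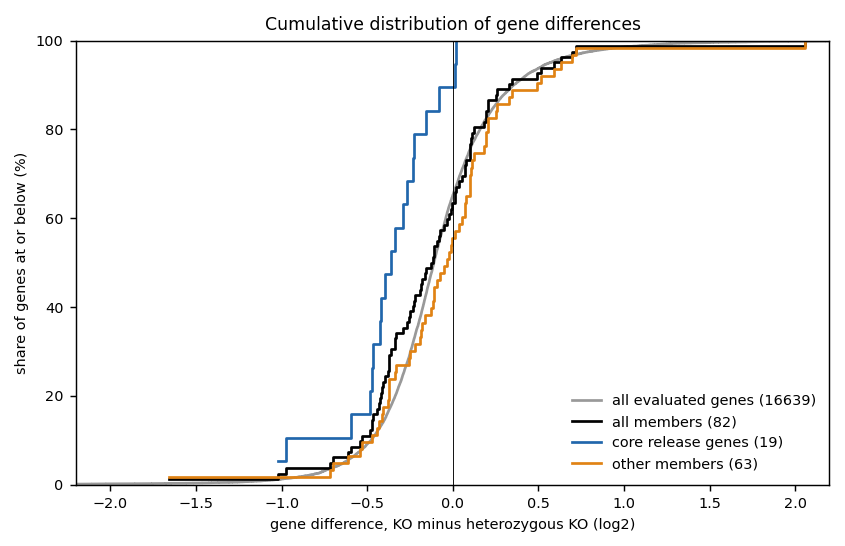
Cumulative share of genes (vertical axis, percent) at or below a given difference (horizontal axis, KO minus heterozygous KO, log2). The line of all 82 members lies close to that of all 16639 evaluated genes, and the line of the 19 core genes is shifted to lower values (median -0.36). The line of the 63 other members (median -0.03) is spread wider than that of all genes. Its quartiles are -0.33 and 0.15, beside -0.29 and 0.09 over all genes.

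Of the complexins, the small proteins that clamp and activate assembled SNAREs, Cplx2 was called lower and Cplx1 was below 0 in every probe set. Cplx2 had a level of 7.65 in KO cells against 8.75 in heterozygous cells. Its difference, the median over probe sets, was -1.02 (SD 0.71), which is 2.03-fold lower. Its probe sets were lower in 12 of 13, by at least 2-fold in 7 of them, and ran from -2.08 (7.65 against 9.74) to 0.08 (6.53 against 6.45). The brightest one did not follow, at 12.1 on both arrays. Cplx2 sat just inside the limit and lost the call at -0.77 with no floor, -0.90 with the floor at the 75th percentile, -0.87 with the mean over probe sets, -0.94 with the trend on level removed and -0.91 with differences centred on the median of all genes.

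Cplx1, the paralog most used with Cplx2 in forebrain terminals, was lower in 13 of 13 probe sets, with levels of 7.70 and 8.31 and a difference of -0.47 (SD 1.03). Of these, 3 stood at -2.86, -2.84 and -2.44, the first 2 with KO values under the floor (5.22 and 5.10), and the other 10 lay between -0.72 and -0.04. By the mean over probe sets its difference was -0.95. Cplx3, a retinal complexin with 3 probe sets above the floor, stood at 0.00 (6.47 against 7.05). Among the other SNARE regulators, Nsf, the ATPase that recycles SNAREs, had levels of 9.57 and 9.98 and a difference of -0.36, with 20 of 25 probe sets lower. Stxbp4, highest in this role and known for binding syntaxin 4 in insulin-responsive cells, was at 0.18, and Stxbp5 (tomosyn, which occupies syntaxin without driving fusion) was at -0.12 with 23 of 41 probe sets lower.

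The SNAREs of fast release themselves had differences from -0.48 to -0.16, and none was called. Snap25, the plasma membrane SNAP of neurons, had levels of 10.6 and 11.1 and a difference of -0.16, with 13 of 18 probe sets lower. Vamp2, the synaptobrevin of synaptic vesicles, was at 11.1 on both arrays with a difference of -0.34, and its 10 probe sets ran from -0.83 to 0.39. Stx1a, the neuronal plasma membrane syntaxin, was at 7.89 and 8.87 with a difference of -0.48 (SD 1.49), and here the probe sets disagreed most: 4 of 12 were at least 2-fold lower, down to -4.02 (4.99, under the floor, against 9.02), while 3 were higher, up to 0.90. Stx1a stood at -0.85 by the mean over probe sets. Plasma membrane SNAREs of broad tissue distribution lay near or above 0, with Stx2 at -0.01, Stx4a at 0.10, Snap23 at 0.25 and Stx3 at 0.35; Stx2 and Stx4a change sign under other settings.

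Vamp8 (endobrevin), a SNARE of late endosomes and of secretory granules in exocrine and blood cells, was the lowest member. Its level was 6.57 in KO cells against 7.71 in heterozygous cells, with a difference of -1.66 (SD 0.90). The call rests on 3 probe sets, at -2.14 (6.57 against 8.71), -1.66 (5.84 against 7.50) and -0.39 (7.32 against 7.71); the one that sets the median has a KO value just under the floor, so its difference is uncertain in size, and the 1 below the floor was lower too, at -0.64. It stayed called in the 8 alternatives that evaluated it, with its smallest difference at -1.15 with no floor.

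Stx19, a syntaxin described mainly in epithelial tissue, was the highest member. Its level was 10.02 in KO cells against 6.99 in heterozygous cells. Its difference, the median over probe sets, was 2.06 (SD 1.19), which is 4.17-fold higher. All 4 of its probe sets were higher, at 3.74 (10.2 against 6.48), 2.41 (9.81 against 7.40), 1.71 (10.5 against 8.78) and 0.93 (7.52 against 6.58). In the RefSeq gene table Stx19 overlaps Arl13b, a gene of primary cilia that had no probe set with a single symbol, so signal of one cannot be told apart from signal of the other. Stx19 was called in the 9 alternatives that evaluated it, at 2.06 to 2.41.

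The promoters of the 3 called genes are shown because a FoxO1 knockout makes matches to the FoxO core motif of interest. Sequences are from RefSeq (GRCm38.p6), run from 250 bases before to 50 after the start of the gene, and are written in the direction of transcription; capitals mark the motif GTAAACA, searched on both strands.
Cplx2, chr13:54302306-54302605, plus strand: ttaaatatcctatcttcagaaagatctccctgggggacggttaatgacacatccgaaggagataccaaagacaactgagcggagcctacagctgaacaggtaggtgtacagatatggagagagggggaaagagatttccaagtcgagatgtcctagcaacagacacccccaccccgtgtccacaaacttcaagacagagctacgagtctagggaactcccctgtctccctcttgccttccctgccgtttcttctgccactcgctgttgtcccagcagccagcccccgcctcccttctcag
Vamp8, chr6:72390618-72390917, minus strand: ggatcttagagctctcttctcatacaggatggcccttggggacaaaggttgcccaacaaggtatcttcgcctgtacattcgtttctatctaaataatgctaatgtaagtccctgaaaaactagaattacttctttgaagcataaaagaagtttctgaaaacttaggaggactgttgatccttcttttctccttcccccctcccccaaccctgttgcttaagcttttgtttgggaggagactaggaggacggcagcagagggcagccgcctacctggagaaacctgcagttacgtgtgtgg
Stx19, chr16:62814426-62814725, plus strand: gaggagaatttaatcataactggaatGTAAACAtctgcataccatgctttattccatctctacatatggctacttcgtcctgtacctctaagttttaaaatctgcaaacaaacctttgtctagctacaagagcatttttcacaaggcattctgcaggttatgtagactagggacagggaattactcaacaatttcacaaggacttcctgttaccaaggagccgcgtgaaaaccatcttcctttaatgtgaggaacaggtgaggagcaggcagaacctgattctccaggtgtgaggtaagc
Only the Stx19 window among the 3 holds the motif, with its first base at position -224. Over all genes described here, 64 had an entry, with 83 promoter windows in all, of which 2 (2.41%) held the motif, beside 1199 of 32851 windows (3.65%) in the whole table. The other match was in Stx2, which differed by -0.01. A match is a run of letters and does not show that FoxO1 binds there.

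**Figure D3:**
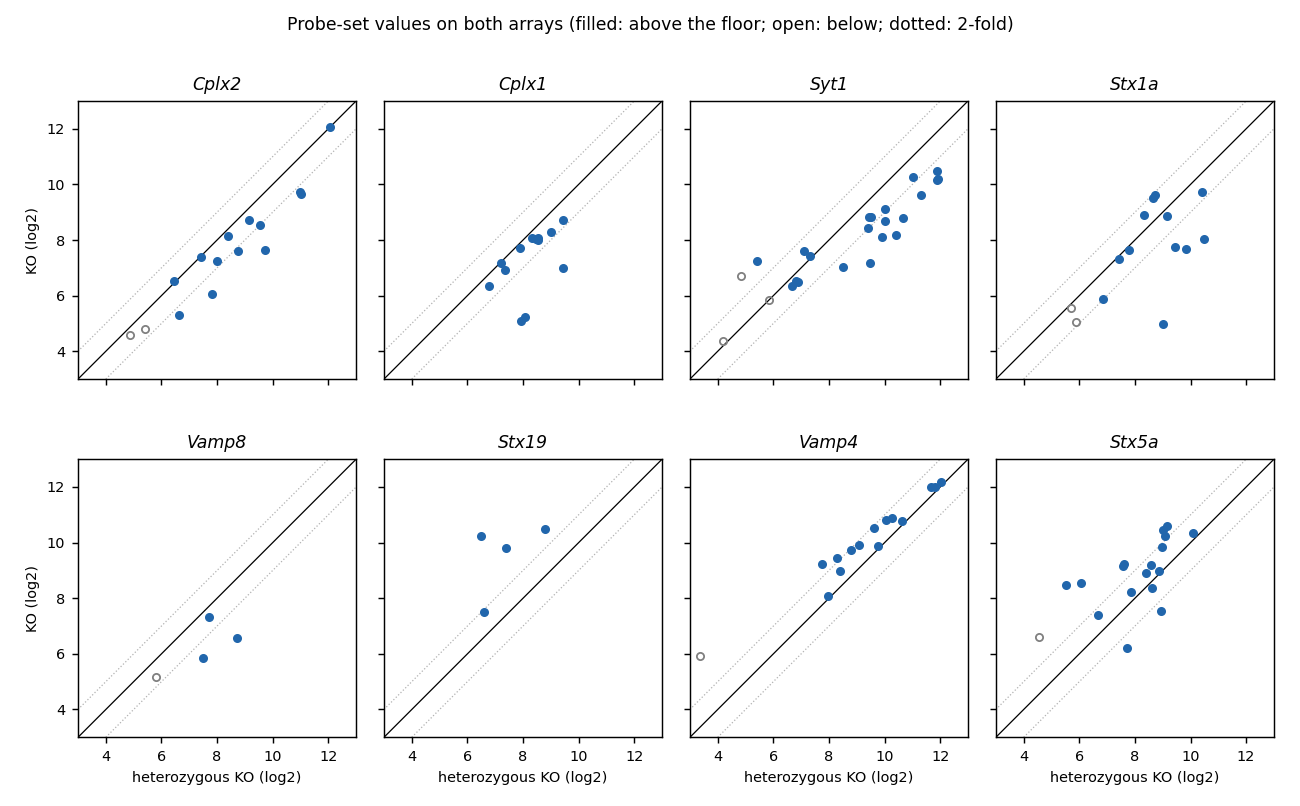
Probe-set values (log2) on the KO array (vertical axis) against the heterozygous array (horizontal axis) for 8 members; the solid line marks equal values, dotted lines mark 2-fold, and open points lie below the floor. Cplx2 and Syt1 lie mostly below the line, 3 probe sets of Cplx1 and 1 of Stx1a fall far from the rest, and the probe sets of Vamp4 and Stx19 all lie above it.

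SNAREs of other membrane steps, which serve the Golgi, endosomes and autophagosomes, were the 1 role with a median above 0 (0.07, with 5 of 13 members below 0); that median was negative in 2 of 10 alternatives, lowest at -0.14. Stx5a, the syntaxin of traffic into and through the Golgi, was highest at 0.72 (8.98 against 8.57, SD 1.17), with 14 of 17 probe sets higher and 7 of these at least 2-fold. Vamp4, a SNARE of the trans-Golgi network, was at 0.59 (10.2 against 9.70, SD 0.43), and its 14 probe sets were all higher, from 0.12 to 1.47. Vamp7, of lysosomal and neurite membrane traffic, stood at 0.70, but with 8 of 13 probe sets higher. At the other end, the endosomal syntaxins Stx7, Stx12 and Stx8 stood at -0.43, -0.41 and -0.37, with 9 of 11, 9 of 11 and 10 of 13 probe sets lower. Stx6, of the trans-Golgi network and early endosomes, was at -0.34 with 8 of 13 probe sets lower (SD 1.49). No gene of this role passed the 2-fold rule.

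The role named calcium sensors, with 19 genes, had a median of -0.18 and 13 below 0, and none was called. It holds all 17 synaptotagmins with Doc2a and Doc2b, taken by family, and not every one need sense calcium. Syt1, the sensor of fast synchronous release, was lowest, with levels of 8.43 (KO) and 9.53 (heterozygous) and a difference of -0.97 (SD 0.99), just outside the limit. Of its 21 probe sets 18 were lower, and 10 of these at least 2-fold. The bright ones were among them: 4 with heterozygous values from 11.3 to 11.9 had KO values from 9.63 to 10.5. Syt1 overlaps the gene model Gm5136, which had no probe set with a single symbol under that name. Older names of Gm5136 were not searched, and the signals of this pair were not told apart. With the floor at the 75th percentile Syt1 was at -1.49 over 15 probe sets and passed the rule. Its difference ranked at percentile 1.35 among all evaluated genes, next to Cplx2 at 1.12.

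Syt7, the high-affinity sensor of asynchronous and dense-core vesicle release, was lower in 18 of 19 probe sets with a difference of -0.42 (SD 1.20). As in Cplx1, a few probe sets stood apart: 3 were at -3.76, -3.75 and -3.19, with KO values of 4.69, 6.42 and 4.51 (the first and the last under the floor), and the others lay between -1.15 and 0.17. Its mean over probe sets was -0.96. Further synaptotagmins lower in most probe sets were Syt3 at -0.54 (14 of 15), Syt17 at -0.53 (11 of 12) and Syt13 at -0.61 (9 of 12).

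Of the 17 synaptotagmins 12 were below 0 (70.6%, beside 65.2% of all genes). Syt12 at -0.44, Syt16 at -0.37 and Syt11 at -0.25 were among these. The 5 above 0 were Syt14 at 0.19 and the genes that follow. Syt4, which resides on Golgi and dense-core vesicles and binds calcium weakly, was at 0.33 (10.8 against 10.3), with 10 of 12 probe sets higher. Syt5 was at 0.01 with 5 of 10 probe sets on each side, and Syt2, the fast sensor of hindbrain and spinal synapses, was at 0.12 (6.83 against 6.39). Syt10, a sensor of growth factor vesicles in olfactory neurons, had the highest difference of this role at 0.51, but its 8 probe sets ran from -3.87 to 2.57 (SD 2.21). It stood at 0.02 with no floor and at 2.27, past the rule, over the 5 probe sets left with the floor at the 75th percentile, so its size and its call depend on which probe sets are read.

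Priming and active zone genes, long genes with many probe sets, had a median of -0.18 over 12 members and no call. Bsn and Pclo, large scaffold proteins of the presynaptic active zone, were at -0.42 (7.62 against 8.04, 30 of 39 probe sets lower) and -0.27 (29 of 47). The 4 RIM genes were split, with Rims1 at -0.40 (33 of 47 lower), Rims3 at -0.09, Rims4 at 0.10 and Rims2 at 0.21; Rims3 and Rims4 change sign under other settings. Cadps, which primes dense-core vesicles, was lowest at -0.47 (9.34 against 9.80, 28 of 41). Unc13a, the main Munc13 of glutamatergic terminals, was at -0.29 (38 of 56 probe sets lower), whereas its paralog Unc13b was at 0.63 (7.62 against 6.99), with 27 of 38 probe sets higher, 13 of them at least 2-fold. Unc13b stood at 0.21 with no floor. Unc13a and Unc13b overlap Colgalt1 and Fam214b, which had no probe set with a single symbol under these names. Older names of Colgalt1 and Fam214b were not searched, and the signals of each pair were not told apart. Cadps2, the paralog of Cadps, was at 0.04 and ran down to -0.24 among the alternatives. The difference between paralogs was not tested.

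Proteins of the vesicle membrane had a median of -0.11, the same as all genes. Of the synaptogyrins, tetraspan proteins of synaptic vesicles, Syngr1 was lower in 6 of 6 probe sets at -0.37 (SD 0.16), Syngr3 in 6 of 7 at -0.70 (SD 0.60) and Syngr2 in 6 of 8 at -0.41 (SD 0.62), while Syngr4 was at 0.05. A floor set at percentile 75 left Syngr3 at -0.27. Sv2b, the SV2 isoform of many excitatory neurons, was lowest at -0.72 (7.18 against 7.96, SD 1.17, 10 of 13 probe sets lower). Its probe sets disagreed, with 2 at least 2-fold lower and 3 at least 2-fold higher, and it was -0.23 at its smallest. Sv2a, found at nearly all synapses, was at -0.08 and Sv2c at -0.11. Both change sign under other settings, up to 0.03 and 0.09. Syp, an abundant vesicle membrane protein, was at 9.87 and 9.56 with a difference of 0.01 and 7 of 16 probe sets lower. Synpr, its close relative, was highest at 0.49 (8.60 against 7.68), with 9 of 12 probe sets higher.

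Synapsins tether vesicles to each other in the reserve pool, and Rab3 proteins guide them to release sites. Syn1 was at -0.60 (8.60 against 9.56, SD 0.65), lower in 19 of 21 probe sets. Syn3 was at -0.25 (15 of 21 lower), and Syn2 at 0.02 with 12 of 26 lower. Of the 83 genes, 15 overlap another protein-coding gene in the RefSeq table, the synapsins among them. Syn1 overlaps Timp1 (difference 0.24) and Araf (-0.16), Syn2 overlaps Timp4 (-0.66), and Syn3 overlaps Timp3 (0.12) and Fbxo7 (-0.32). Rab3a, the main Rab3 of brain, was at -0.23 with 9 of 10 probe sets lower, while Rab3c was highest at 0.10 with 10 of 16 higher. For membrane recovery, Synj2 and Synj1, the phosphatases that uncoat endocytosed vesicles, stood at -0.47 (21 of 26 lower) and -0.23 (29 of 43), and the clathrin adaptor Snap91 was at -0.02. None of these 10 genes was called.

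At the level of single probe sets, 1343 of the 1641 reached the floor. Of these 805 (59.9%) were lower on the KO array, beside 57.4% of all 215976 such probe sets with a single symbol. At least 2-fold lower were 186 (13.8%, beside 11.0%), and 109 (8.12%, beside 9.24%) were at least 2-fold higher. Those lower ones came from 60 genes and the higher ones from 40, with 31 genes in both, so more than 1 direction within a gene was common. Probe sets of a gene share a transcript and a sample and are not replicates.

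Other parts of the vesicle cycle, read from separate lists, gave 1 call. Of 6 evaluated vesicular transmitter transporters, Slc17a6, the glutamate transporter of hypothalamic excitatory neurons, was called lower at -4.29 (5.40 against 9.11), with its KO level under the floor, while Slc32a1, the GABA transporter that AgRP neurons use, was at -0.40 (7.97 against 8.17). The 15 subunits of the vesicular proton pump had a median of 0.10 with 10 above 0, from Atp6v0e2 at -0.41 to Atp6v1g1 at 0.98. Endocytosis genes (26) had a median of -0.13, from Pacsin1 at -0.84 to Itsn2 at 0.18, and 27 other genes of the release apparatus had a median of -0.15, from Cask at -0.75 to Stxbp5l at 0.79. None of these 68 genes was called.

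Markers of cell types were read beside these values. The 14 evaluated oligodendrocyte lineage markers were all below 0 (beside 65.2% of all genes), with a median of -1.07. Of these markers 8 were called lower (beside 1.12% of all genes). Their list had a median level of 7.06 in KO cells against 8.74 in heterozygous cells. All 7 vessel markers were below 0, also beside 65.2% of all genes, with a median of -0.33. Vessel markers were dim, with a median level of 6.74 in KO cells against 7.12 in heterozygous cells. Their median SD over probe sets was 1.08. The lowest difference was that of Cdh5, at -0.77 (6.45 against 8.03, SD 1.26). Neuronal markers outside the vesicle genes had a median of -0.16 over 13 genes, from Nefl at -0.90 to Dlg4 at 0.15, and the 12 AgRP neuron markers a median of 0.10, from Insr at -0.70 to Mc3r at 0.52. Astrocyte and microglia markers had medians of -0.19 and -0.12. Oligodendrocyte markers and Slc17a6 thus moved with the lower core release genes, and their part in those differences was not tested. Foxo1 itself stood at 7.46 and 7.98 (difference -0.48, 8 of 8 probe sets lower) and was not called; the deleted exons are not named by the labels, so this does not check the genotype.

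**Figure D4:**
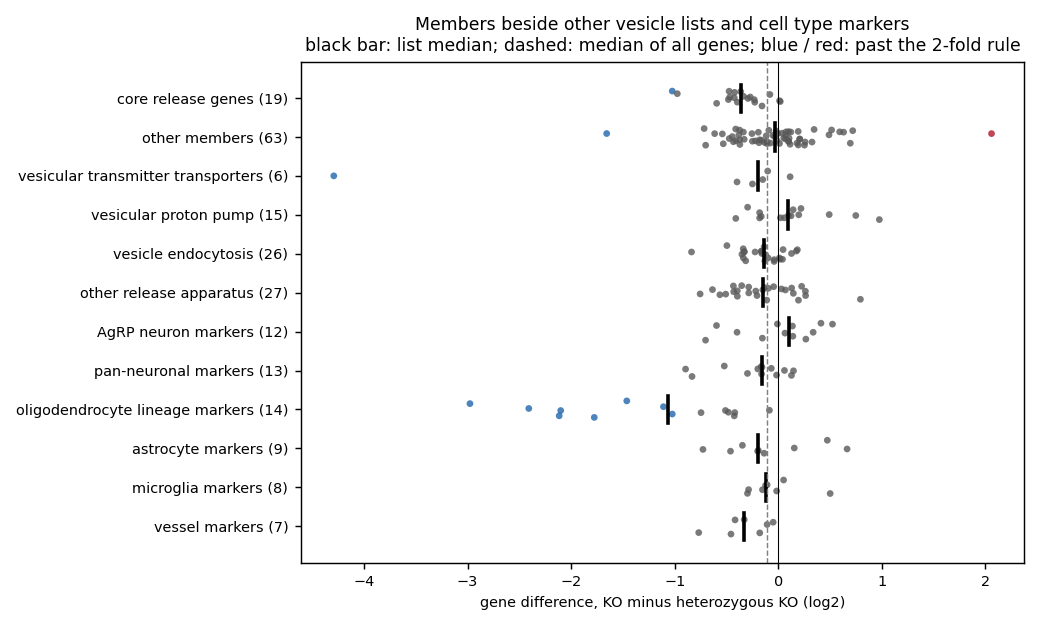
Differences (KO minus heterozygous KO, log2) of single genes in the core release list, the other members, 4 further vesicle lists and 6 marker lists, with the number of evaluated genes in brackets; black bars are list medians and the dashed line is the median of all genes (-0.11). Core release genes (median -0.36) and vessel markers (-0.33) lie to the left of that line, oligodendrocyte markers (-1.07) further left, and Slc17a6 is the leftmost point at -4.29.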

How the data were processed

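Data of 2 arrays were read from the deposited table of log2 values, 1 per probe set and array, which the authors made with RMA and Partek, per the submitters' processing notes; the sources used here give no versions, genome build or annotation release, and the log2 scale was read from the values. RMA as usually run gives both arrays 1 distribution, which hides any change of total RNA. The 1235936 probe sets were joined to the platform annotation, and only those with 1 symbol named a gene; all 83 symbols were current in RefSeq's table for GRCm38.p6. Genes were summarised over the whole table as the report describes, and the summary was tested on simulated data. Members were set by a rule on symbols that used no measured value. That rule, the role lists, the core list and the companion lists were chosen with earlier results of these data known. Named by rule were called members, the highest and lowest of each role, the core genes, and called or extreme companions; other genes were named after their values were seen. The number of arrays limits the precision. Alternatives are in the closing section. Python 3.11.15, numpy 2.4.6, pandas 2.3.3 and matplotlib 3.10.9 were used.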

Additional observations from a re-analysis of the deposited data

How the results depend on the processing

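The median over members kept its sign in 10 of 10 alternatives, from -0.19 with no floor to -0.01 with differences centred on the median of all genes, and the core median ran from -0.36 to -0.25. Centring adds 0.11 to every gene, and 42 members were then below 0. Members called lower numbered 1 in place of 2 under 6 alternatives: no floor, a mean in place of the median over probe sets, a floor at the 75th percentile, a minimum of 5 probe sets, centring, and removal of the trend on level. Members called higher numbered 2 with the floor at the 75th percentile (Stx19 and Syt10) and 0 with a minimum of 5 probe sets, where Stx19 has too few. The 1.5-fold limit gave 7 lower and 3 higher. Of the 82 members, 60 kept their sign under every alternative that evaluated them (41 below 0 and 19 above). Cplx3, Snap91, Sv2a, Sv2c, Syn2, Syngr4 and Syt2 were among those that did not. Vamp8 was not evaluated under a minimum of 5 probe sets or under the higher floor. Dim probe sets limit Vamp8, Cplx3 and Cplx4. No paired analysis was possible because each genotype has 1 array.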

Other observations

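Single probe sets far from the rest of their gene were looked up after the values were seen. Most of them have a value under the floor of 5.86 on 1 array, so the size of these differences is uncertain. Syn3 held 1 at 4.71 against 10.4 (KO and heterozygous, difference -5.70), while the gene stood at -0.25 over 21 probe sets. Unc13c, the Munc13 best known from cerebellum, held 3 at -4.49, -3.49 and -3.33, with the gene at -0.22 over 17. Syt9 held 1 at -3.71 and Syt13 1 at -3.83. On the higher side, Syn2 held 1 at 4.53 (9.51 against 4.98), Unc13b at 4.23 (8.59 against 4.36) and Cadps2 at 3.54 (8.61 against 5.08). Of the probe sets named here, only 1 in Unc13c (6.09 against 9.58) had both values above the floor. The exons these probe sets lie in are not known here, and with 1 array per genotype none of them has a replicate.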
